A study of Mus musculus with 8 samples.

Results

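Integrins are cell surface receptors made of 1 alpha and 1 beta chain, and 10 of their genes were followed here across all 8 libraries: 6 alpha chains (Itgal, Itgam, Itga4, Itga6, Itga7 and Itgav) and 4 beta chains (Itgb1, Itgb2, Itgb5 and Itgb7). They were taken by symbol from a table of 24924 genes, in which all 10 were found. They were chosen by name, with earlier results of these data known. Itga7 was also selected on a measured value, its level near 0 in both libraries of IL-5 treated microglia. The microglia comparison of IL-5 with PBS is therefore given as a description, without p-values.

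RNA came from microglia, the resident macrophages of the brain, and from brain T cells, both sorted by surface markers that the labels do not name. All mice were C57BL/6 and 20 to 22 months old. Those of 2 groups, microglia IL-5 and T cells IL-5, had received interleukin-5 (IL-5), a cytokine best known for its action on eosinophils, at 2 µg a day for 2 days, and those of the other 2 groups, microglia PBS and T cells PBS, had received phosphate-buffered saline. Each group had 2 libraries. No label ties a library to a mouse of its own, so p-values measure the spread between these libraries, which may be technical.

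The chain a cell makes decides what it can bind. Beta 2 (Itgb2) pairs with alpha L (Itgal) to form LFA-1, which binds ICAM molecules on other cells, and with alpha M (Itgam, CD11b) to form complement receptor 3 of myeloid cells. Alpha 4 (Itga4) pairs with beta 1 (Itgb1) to form VLA-4, the receptor for VCAM-1 that T cells use to enter the inflamed brain, or with beta 7 (Itgb7) to bind MAdCAM-1 on gut vessels. Alpha 6 (Itga6) and alpha 7 (Itga7) pair with beta 1 to bind laminin, alpha 7 best known in muscle. Alpha V (Itgav) pairs with beta 5 (Itgb5) and other beta chains to bind RGD-containing proteins of the matrix and latent TGF-beta.

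Promoter sequences were at hand for 6 of the 10 genes. The 250 bases before the RefSeq start on GRCm38.p6 are shown for Itgam, the chain all but missing from T cells, and for Itga4 and Itgb7, a pair of partner chains that were both high there. Capitals mark matches, on either strand, to GAGGAA, the core bound by the myeloid factor PU.1 (Spi1), and to TGTGGT, bound by Runx factors.
Itgam (chr7:128062390-128062639, plus strand): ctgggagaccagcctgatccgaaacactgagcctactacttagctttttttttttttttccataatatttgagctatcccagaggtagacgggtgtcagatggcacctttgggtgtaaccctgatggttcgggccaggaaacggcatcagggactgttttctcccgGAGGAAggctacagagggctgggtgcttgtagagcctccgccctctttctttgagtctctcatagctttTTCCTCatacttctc
Itga4 (chr2:79255176-79255425, plus strand): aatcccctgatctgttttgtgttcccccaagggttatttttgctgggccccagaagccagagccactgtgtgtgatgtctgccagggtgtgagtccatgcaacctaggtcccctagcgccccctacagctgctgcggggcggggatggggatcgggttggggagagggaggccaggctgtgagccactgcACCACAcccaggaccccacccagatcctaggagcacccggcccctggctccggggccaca
Itgb7 (chr15:102231936-102232185, minus strand): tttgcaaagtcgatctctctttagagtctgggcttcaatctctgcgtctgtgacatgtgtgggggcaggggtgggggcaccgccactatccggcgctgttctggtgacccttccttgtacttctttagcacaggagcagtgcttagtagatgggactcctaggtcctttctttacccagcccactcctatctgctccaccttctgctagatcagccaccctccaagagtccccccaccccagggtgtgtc
The Itgam stretch held 2 PU.1 cores, beginning 84 and 15 bases before the start, and the Itga4 stretch 1 Runx motif, beginning 60 bases before it. The Itgb7 stretch held neither set of letters. Of 32851 promoter stretches of the same length, 23.3% held the PU.1 core and 14.0% the Runx motif, and these matches are a description of the letters only. Of the members not shown, Itgav had 2 PU.1 cores, Itgb1 1 and Itgb5 no match. No promoter sequence was at hand for Itgal, Itga6, Itga7 and Itgb2, which were not searched.

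The libraries held 23536908 to 30423828 counts in genes, and levels are given as counts per 1000000 of these (CPM), 1 count being worth 0.0329 to 0.0425 CPM. Microglia IL-5 replicate 1 stood apart: it had 13172 genes with a count, against 14318 to 14624 in the other microglia libraries, and 25.5% of its reads lay outside genes, against 15.2% to 17.0%. The microglia markers P2ry12 and Tmem119 reached at least 1444 CPM in every microglia library and at most 2.21 CPM in any T cell library. All 16 microglia markers summed to 49578 to 64677 CPM in microglia and to 1131 to 1523 CPM in T cells, where Selplg, also made by lymphocytes, and Sparc had the highest levels. The T cell marker Cd3d measured 421 to 729.6 CPM in T cells and 6.33 to 32.2 CPM in microglia. Neutrophil markers, 12 of which are in the table, summed to 13601 to 17647 CPM in microglia and 6.89 to 34.5 CPM in T cells. Choroid plexus and ependyma markers, also 12, summed to 36055 to 64160.4 CPM in microglia and to 59498 to 116844 CPM in T cells.

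Levels of different chains are compared as CPM per kilobase of merged exons, which takes the gene's length into account. In PBS microglia Itgb5 was the most abundant of the 10, at 163 ± 10.6 CPM per kilobase (SD, n = 2), followed by Itgb2 at 66.2 ± 6.62 (SD, n = 2) and Itgam at 58.0 ± 16.3 (SD, n = 2), whose libraries overlapped. Itgb1 came next at 36.6, then Itga6 at 11.7, Itgb7 at 8.22, Itgav at 5.21, Itga7 at 2.82, Itgal at 1.68 and Itga4 at 0.648, with no overlap between the libraries of neighbours in this order. In PBS T cells the order was led by Itgb1 at 247 ± 8.42 CPM per kilobase (SD, n = 2). Itgb2 at 153 and Itgb7 at 143 followed, with overlapping libraries, and then Itgal at 55.9 and Itga4 at 20.5. Itgb5 at 9.56, Itga6 at 5.52 and Itgav at 4.16 overlapped with their neighbours, and Itga7 at 0.129 and Itgam at 0.0851, which overlapped, were last. After IL-5 the order in microglia was Itgb5, Itgam, Itgb1, Itgb2, Itga6, Itgb7, Itgav, Itga4, Itgal and Itga7, and the libraries of neighbours overlapped from Itgam down to Itgav. After IL-5 the order in T cells was Itgb1, Itgb7, Itgb2, Itgal, Itgb5, Itga4, Itga6, Itga7, Itgav and Itgam, and the neighbours overlapped from Itgb1 to Itgb2, for Itgb5 and Itga4, and for Itga7 and Itgav.

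**Figure D1:**
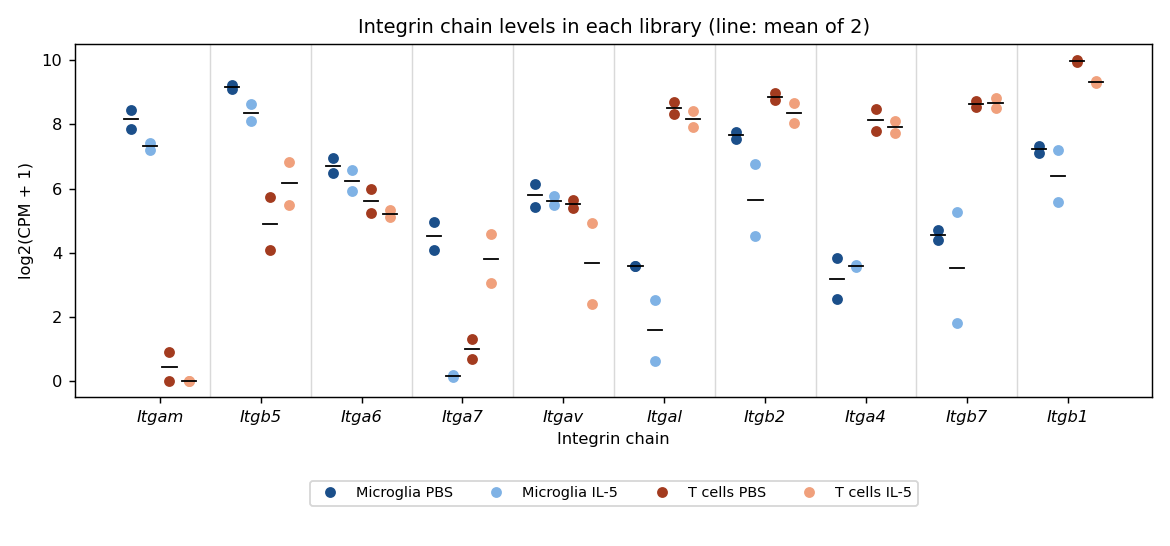
Levels of the 10 integrin chains, as log2(CPM + 1), in each of the 8 libraries. Points are libraries, coloured by group, and lines are means of 2. Itgam and Itgb5 lie highest in microglia, Itgal, Itga4, Itgb7 and Itgb1 highest in T cells, and Itga7 is low in IL-5 microglia and in PBS T cells.

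The make-up of the integrin set can also be read within a library, where no scaling between libraries enters. Itgam made up 53.1% and 68.2% of the summed CPM per kilobase of all 18 alpha chains in PBS microglia and 56.8% and 58.8% after IL-5, and at most 0.132% in any T cell library. Itgal made up the largest alpha share in every T cell library, with 47.2% and 48.9% after PBS and 39.2% and 52.5% after IL-5, against 0.144% to 1.91% in microglia. Itga4 added 15.2% to 20.9% in T cells and 0.338% to 1.51% in microglia. Among the 8 beta chains Itgb5 held 55.5% and 61.2% in PBS microglia and 0.819% to 7.27% over the T cell libraries. In PBS T cells Itgb1 held 44.8% and 43.8% and Itgb7 27.1% and 24.5%. The share of Itgb2 in PBS mice was 25.3% and 22.1% in microglia and 25.2% and 29.9% in T cells, and these overlapped. The libraries of the cell types did not overlap in the shares of Itgam, Itgal, Itga4, Itga6, Itgav, Itgb5, Itgb1 and Itgb7. For Itgav they came close, at 3.86% in the lowest microglia library and 3.66% in the highest T cell library. They overlapped in the shares of Itga7 and Itgb2.

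**Figure D2:**
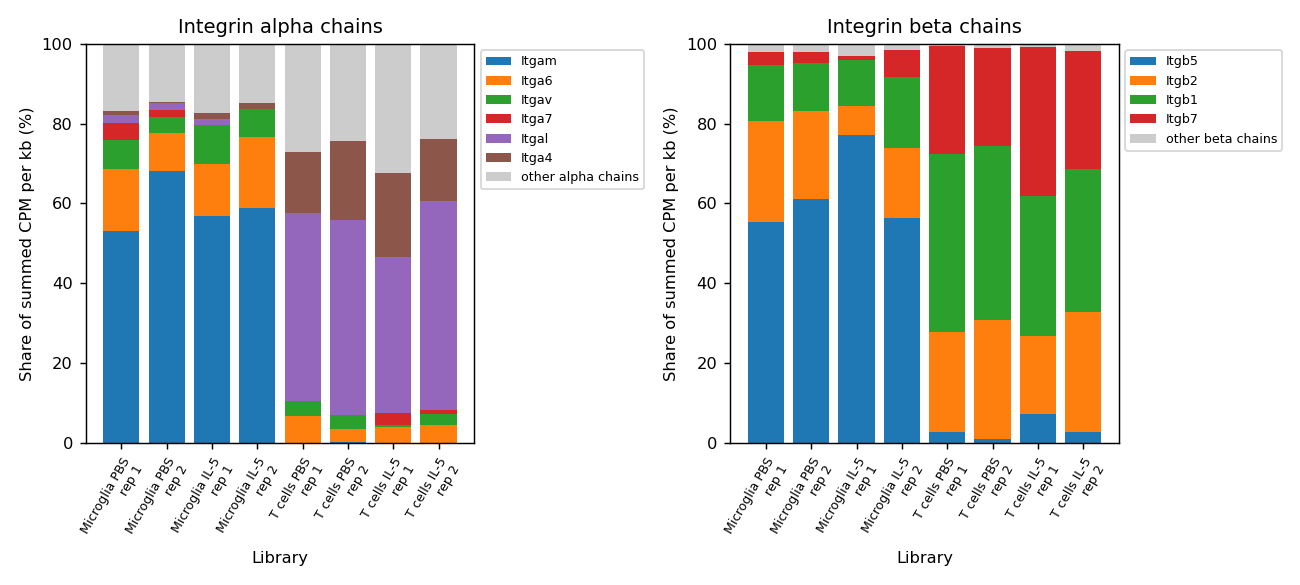
Share of each integrin chain in the summed CPM per kilobase of all alpha chains (left) and all beta chains (right), one bar per library, in percent. Itgam and Itgb5 fill the largest parts of the microglia bars, and Itgal and Itgb1 those of the PBS T cell bars.

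The comparison of T cells with microglia asked how the integrin sets of the sorted populations differ. In PBS mice 3 of the 10 chains were higher in T cells by the edgeR quasi-likelihood test (Itgal, Itga4 and Itgb1) and 3 were lower (Itgam, Itgb5 and Itga6), where 2.57% of all 15397 genes tested were called higher and 4.60% lower. In IL-5 mice, and leaving out Itga7, 4 of 9 were higher (Itgal, Itga4, Itgb7 and Itgb1) and 3 lower (Itgam, Itgb5 and Itga6), against 2.49% and 5.73% of all genes. The chains were chosen with earlier results of these data known, so these counts beside the shares are a description. Log2 fold changes of the edgeR test are scaled by TMM, which sets the bulk of genes equal between cell types. Folds given below for single chains are ratios of mean CPM without TMM, so they differ from the log2 values beside them. With library-size scaling the median log2 fold change of all genes moved from 0.056 to 0.75 in PBS mice, and calls turned from 396 higher and 709 lower to 919 higher and 376 lower. In CPM, 5 of 10 chains were higher in T cells without overlap between libraries in PBS mice and 4 lower, against 45.4% and 19.4% of all genes with a mean of at least 1 CPM, and in IL-5 mice, leaving out Itga7, 5 of 9 were higher and 4 lower, against 46.9% and 14.9%. Itga7 is among those lower in PBS mice, and its PBS microglia libraries belong to the comparison from which it was chosen. None of the 10 changed sign in either comparison under any scaling, filter, tool or left-out library. With bulk libraries, fewer cells of a type and less RNA per cell cannot be told apart.

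Itgal (ENSMUSG00000030830, GRCm38 chromosome 7, 127296260 to 127335138) measured 321 and 413 CPM in PBS T cells and 10.98 and 11.1 CPM in PBS microglia. Every T cell library lay far above every microglia library. The mean was 33.2-fold higher in T cells (log2 fold change 4.36 with SE 0.89, adjusted p = 0.0203 by edgeR). After IL-5 the values were 244 and 338 CPM in T cells and 4.80 and 0.551 CPM in microglia (5.79 with SE 0.96, adjusted p = 0.00822 by edgeR). The PBS call was lost without microglia PBS replicate 1 (edgeR adjusted p = 0.196), microglia PBS replicate 2 (0.203), T cells PBS replicate 1 (0.0738) or T cells PBS replicate 2 (0.0839), and with no filter on low counts (0.0632). The IL-5 call was lost when only the 4 libraries compared were fitted (0.0905).

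Itga4 (ENSMUSG00000027009, GRCm38 chromosome 2, 79255426 to 79333123) measured 221 and 353 CPM in PBS T cells and 13.3 and 4.82 CPM in PBS microglia. The groups lay apart by a mean ratio of 31.7 (log2 fold change 4.29 with SE 0.58, adjusted p = 0.00305 by edgeR). After IL-5 it measured 277 and 214 CPM in T cells and 10.8 and 11.1 CPM in microglia (3.64 with SE 0.57, adjusted p = 0.00671 by edgeR). Itga4 passed in both comparisons under each of the 15 alternatives, leaving out single libraries included. Its exons share 8.04% of their bases with Cerkl on the other strand, and the labels do not say whether reads were counted by strand.

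Itgb7 (ENSMUSG00000001281, GRCm38 chromosome 15, 102215995 to 102231944), the partner of alpha 4 in gut homing and of alpha E in epithelia, measured 423 and 372 CPM in PBS T cells and 25.3 and 20.2 CPM in PBS microglia. It was 17.5-fold higher on average, with no overlap, and just missed the threshold (log2 fold change 3.43 with SE 0.90, adjusted p = 0.0529 by edgeR). In IL-5 mice, with 456 and 364 CPM in T cells and 2.46 and 37.5 CPM in microglia, it passed (3.68 with SE 0.91, adjusted p = 0.0396 by edgeR). That call was lost without microglia PBS replicate 1 (edgeR adjusted p = 0.114) or 2 (0.116), T cells PBS replicate 1 (0.0912) or 2 (0.0878), or T cells IL-5 replicate 1 (0.183) or 2 (0.111), with no filter (0.17) and with only the 4 libraries compared (0.164). In PBS mice it was called without microglia IL-5 replicate 1 (0.000267) or 2 (0.000234), with the size factors of DESeq2 (0.0464), with library-size scaling (0.0414), with the 4 libraries compared (0.0038) and in DESeq2 (0.000277). The lowest and the highest microglial level fell in the same libraries as those of T cell markers: their sum over 14 genes was lowest, at 18.0 CPM, in microglia IL-5 replicate 1 and highest, at 184 CPM, in microglia IL-5 replicate 2, against 74.9 and 105 CPM after PBS. Between the PBS libraries the order was opposite, with Itgb7 at 25.3 and 20.2 CPM. Microglial Itgal measured 4.80 CPM in IL-5 replicate 1 and 0.551 CPM in IL-5 replicate 2, and Itga4 10.8 and 11.1 CPM. The part of T cells in the microglial Itgb7 level was not tested.

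Itgb1 (ENSMUSG00000025809, GRCm38 chromosome 8, 128685654 to 128733200), the shared partner of alpha 4, alpha 6 and alpha 7, measured 1030.5 and 982 CPM in PBS T cells and 161 and 137 CPM in PBS microglia. It was 6.73-fold higher in T cells (log2 fold change 2.05 with SE 0.42, adjusted p = 0.0212 by edgeR), and in IL-5 mice the log2 fold change was 1.97 (SE 0.42, edgeR adjusted p = 0.0244). The PBS call was lost without microglia PBS replicate 1 (edgeR adjusted p = 0.0986) or 2 (0.154) and without T cells PBS replicate 1 (0.0754) or 2 (0.0614). The IL-5 call was lost without T cells IL-5 replicate 1 (0.0974) or 2 (0.0724) and with only the 4 libraries compared (0.147). Relative to Itgb1 within a library and per kilobase, Itga4 stood at 0.0625 and 0.105 in PBS T cells and at 0.0240 and 0.0102 in PBS microglia. After IL-5 it stood at 0.129 and 0.0964 in T cells and at 0.0667 and 0.0223 in microglia. The cell types did not overlap within either treatment. Across treatments, microglia IL-5 replicate 1 (0.0667) lay above T cells PBS replicate 1 (0.0625).

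Itgb2 (ENSMUSG00000000290, GRCm38 chromosome 10, 77530252 to 77565708) was high in both cell types. It measured 433 and 502 CPM in PBS T cells and 216 and 188 CPM in PBS microglia. The libraries did not overlap in CPM, and after TMM scaling the log2 fold change was 0.51 (SE 0.54, edgeR adjusted p = 0.639). In IL-5 mice it was 1.63 (SE 0.55, adjusted p = 0.114 by edgeR), and leaving out microglia IL-5 replicate 2 it was 2.80 and passed (0.00184), as it did in DESeq2 (0.0253) and with no filter (0.0155). The partners did not overlap between cell types: per kilobase, Itgal stood at 0.345 to 0.429 of Itgb2 in T cells and at 0.00238 to 0.101 in microglia, and Itgam at 0.656 to 4.0 of Itgb2 in microglia and at 0 to 0.00103 in T cells.

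Itgam (ENSMUSG00000030786, GRCm38 chromosome 7, 128062640 to 128118491) measured 234 and 349.6 CPM in PBS microglia and 146 and 172 CPM in IL-5 microglia. Over the 4 T cell libraries it had counts in 1, T cells PBS replicate 2, where 22 counts made 0.855 CPM. Its mean in PBS T cells was 682-fold lower than in PBS microglia (log2 fold change -10.09 with SE 1.39, adjusted p = 0.00629 by edgeR). Pooling the counts, the 95% exact interval of that ratio, which covers counting error only, ran from 451 to 1091. Against a floor of 3 counts per library it was at least 1488-fold lower in IL-5 T cells (edgeR adjusted p = 0.00467). The PBS call was lost without microglia PBS replicate 1 (0.0918) or 2 (0.0917), and with no filter both calls were lost (0.0775 and 0.0573). CD11b, its protein, is a usual marker for sorting microglia, and the labels do not say whether it was used here. Neutrophils also carry Itgam and Itgb2, and their markers were in the same microglia libraries at the sums given above, and their part in the Itgam level was not tested. On GENCODE M21, 68.7% of the exon bases of Itgam also belong to Gm49368 on the same strand, a gene with no entry of its own among the 24924.

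Itgb5 (ENSMUSG00000022817, GRCm38 chromosome 16, 33829665 to 33949338) measured 553 and 606 CPM in PBS microglia and 51.9 and 16.01 CPM in PBS T cells. It was 17.1-fold lower in T cells (log2 fold change -4.79 with SE 0.68, adjusted p = 0.00379 by edgeR) and passed there under each of 15 alternatives. In IL-5 mice, at 272 and 400.3 CPM in microglia against 114 and 44.2 CPM in T cells, the log2 fold change was -2.89 (SE 0.62, edgeR adjusted p = 0.0242). That call was lost with library-size scaling (0.0778) and without microglia IL-5 replicate 1 (0.0837) or 2 (0.0626) or T cells IL-5 replicate 2 (0.103), and with only the 4 libraries compared (0.092).

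Itga6 (ENSMUSG00000027111, GRCm38 chromosome 2, 71745616 to 71858416) measured 123 and 87.7 CPM in PBS microglia and 62.6 and 37.1 CPM in PBS T cells. Its mean CPM was 2.11-fold lower in T cells, and the TMM-scaled log2 fold change was -1.78 (SE 0.44, adjusted p = 0.0437 by edgeR). In IL-5 mice it measured 60.2 and 93.8 CPM in microglia against 33.6 and 39.1 CPM in T cells (-1.90 with SE 0.45, adjusted p = 0.0327 by edgeR). With library-size scaling both calls were lost, at -1.08 in each (edgeR adjusted p = 0.21 and 0.193). The PBS call was also lost without microglia PBS replicate 1 (0.245) or 2 (0.0915), T cells PBS replicate 1 (0.096) or 2 (0.233) and T cells IL-5 replicate 1 (0.0586) or 2 (0.061), and with the 4 libraries compared (0.0516). The IL-5 call was lost without microglia PBS replicate 1 (0.0528) and T cells IL-5 replicate 1 (0.194) or 2 (0.122), and with the 4 libraries compared (0.127). Itga6 is also made by endothelium, whose 10 markers summed to 1275 to 1969 CPM in microglia and 1739 to 3455 CPM in T cells, and the part of these cells in its level was not tested.

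Itgav (ENSMUSG00000027087, GRCm38 chromosome 2, 83724397 to 83806916), the partner of beta 5, measured 69.7 and 42.3 CPM in PBS microglia and 40.7 and 48.7 CPM in PBS T cells. The libraries overlapped (log2 fold change -1.02 with SE 0.79, adjusted p = 0.485 by edgeR). In IL-5 mice it measured 53.6 and 43.5 CPM in microglia against 4.32 and 29.2 CPM in T cells (-2.42 with SE 0.82, adjusted p = 0.114 by edgeR), and without T cells IL-5 replicate 2 it was -4.32 and passed (0.0278), as it did in DESeq2 (0.0169) and with no filter (0.0116). Per kilobase Itgav stood at 0.0231 to 0.0651 of Itgb5 in microglia and at 0.0125 to 1.01 in T cells. Its exons share 5.90% of their bases with Gm13684 on the other strand.

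**Figure D3:**
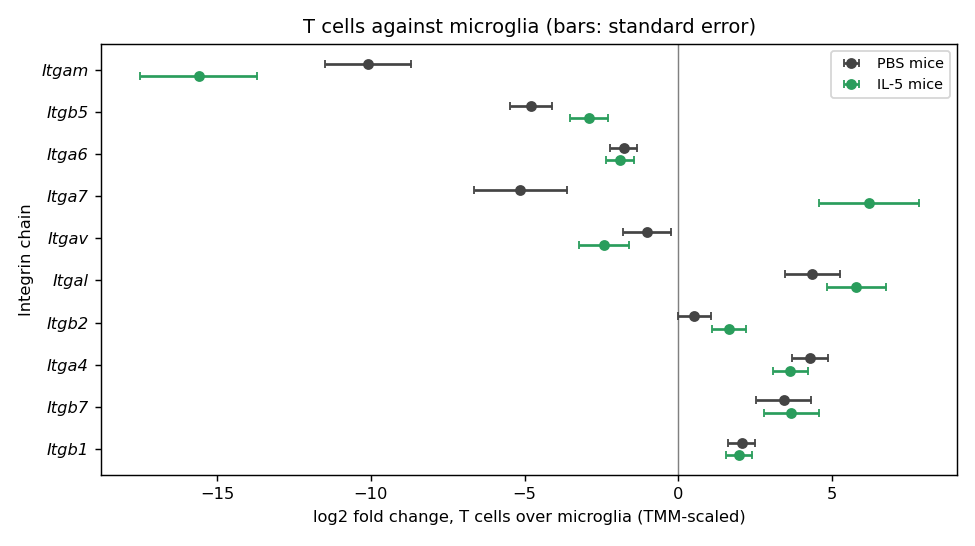
Log2 fold change of T cells over microglia for the 10 chains in PBS mice (grey) and IL-5 mice (green), with standard errors as bars. Values right of 0 are higher in T cells. The Itgam value in IL-5 mice depends on the prior count, since both T cell libraries were at 0, and Itga7 lies at -5.14 in PBS mice and 6.20 in IL-5 mice.

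Itga7 (ENSMUSG00000025348, GRCm38 chromosome 10, 128933818 to 128958282) was the only one of the 10 whose order between the cell types was opposite in PBS and IL-5 mice. In IL-5 mice this order rests on the microglia values that put Itga7 on the list, so it is a description only. In microglia it measured 29.8 and 15.8 CPM with PBS (906 and 429 counts) and 0.085 and 0.147 CPM with IL-5 (2 and 4 counts). In T cells it measured 0.606 and 1.48 CPM with PBS (16 and 38 counts) and 23.1 and 7.23 CPM with IL-5 (690 and 192 counts). Itga7 was thus higher in PBS microglia and IL-5 T cells than in the other 2 groups, and no libraries of the groups compared overlapped within a cell type. Both PBS T cell libraries lay above the floor of 3 counts, as did microglia IL-5 replicate 2, at 4 counts. The microglial mean was 197-fold lower after IL-5, which is the value that put Itga7 on the list, and the pooled counts gave a ratio with a 95% exact interval of 89.9 to 536 for counting error only. Of 8696 genes with at least 5 CPM in both PBS microglia libraries, 0.471% were under 0.5 CPM in both IL-5 libraries, a share given as background to the same value.

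In T cells, which the choice of Itga7 did not use, the mean was 14.6-fold higher after IL-5 (log2 fold change 3.92, SE 1.83). It did not pass in edgeR (adjusted p = 1.00) and passed in DESeq2 (adjusted p = 0.0235). The log2 fold change was 2.82 without T cells IL-5 replicate 1, 4.52 without IL-5 replicate 2, 3.42 without PBS replicate 1 and 4.67 without PBS replicate 2. In PBS mice the difference between the cell types was -5.14 (SE 1.51, adjusted p = 0.075 by edgeR). It passed in DESeq2 (0.000111) and in edgeR with the 4 libraries compared (0.0385). The PBS microglia libraries also belong to the comparison from which Itga7 was chosen. These p-values are therefore not independent of that choice and are given as a description. Lower libraries in IL-5 microglia together with higher ones in IL-5 T cells, each without overlap in CPM, were found for 3.32% of 14219 genes with a mean of at least 1 CPM, and with 10-fold or more in both for 0.253%. The microglial part of this pattern is the value that selected Itga7, so these shares are background only and nothing is read from them.

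Smooth muscle and other mural cells carry Itga7, and 10 mural markers were measured beside it. They summed to 1099.7 and 1009 CPM in PBS microglia, 366 and 936 CPM in IL-5 microglia, 2499 and 2017 CPM in PBS T cells and 3008 and 1239 CPM in IL-5 T cells. None of the 10 was at 0 in both libraries of any group. Of the 10, Myh11, the smooth muscle myosin, measured 234 and 162 CPM in PBS T cells and 14.5 and 18.2 CPM in IL-5 microglia. Itga7 was low in both of these groups, and Myh11 in the other groups is not given here. The mural sum was highest in T cells IL-5 replicate 1, where Itga7 was 23.1 CPM, followed by the PBS T cell libraries, where it was 0.606 and 1.48 CPM. The part of mural cells in the Itga7 level was not tested.

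**Figure D4:**
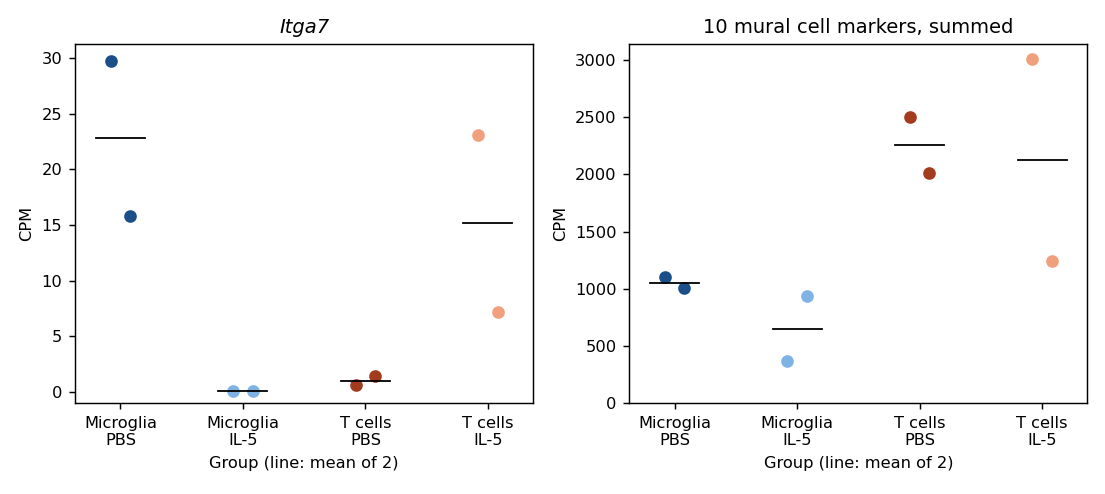
Itga7 (left) and the sum of 10 mural cell markers (right) in CPM, one point per library, with lines for the means of 2. Itga7 is near 0 in IL-5 microglia, where the mural sum is 366 and 936 CPM. It is low in PBS T cells, where the sum is 2499 and 2017 CPM.

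The comparison of T cells after IL-5 with T cells after PBS asked whether the cytokine changed their integrins. Of the 9 chains tested (Itgam was filtered out for low counts), edgeR called 0, as it called 0% of all 13897 genes in either direction, and 1 member and 600 genes had an unadjusted p under 0.05. DESeq2 called Itga7 higher and Itgb1 lower, among 403 genes higher and 255 lower. The median log2 fold change of the 9 was -0.29 and that of all genes -0.012. In CPM 1 chain lay higher after IL-5 with no overlap (Itga7) and 3 lower (Itgav, Itgb1 and Itgb2), against 16.4% and 18.9% of all genes.

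Itgb1 measured 1030.5 and 982 CPM with PBS, against 628 and 648 CPM with IL-5, the difference with the smallest SE among the 9 (log2 fold change -0.61, SE 0.15). It did not pass in edgeR (adjusted p = 1.00, unadjusted p = 0.00671) and passed in DESeq2 (adjusted p = 2.33e-05). Itgb7 stood at 423 and 372 CPM in the PBS libraries and at 456 and 364 CPM in those of IL-5 (0.093, SE 0.21). Within a library and per kilobase the ratio of Itgb7 to Itgb1 was 0.604 and 0.559 after PBS and 1.07 and 0.829 after IL-5, so that the groups did not overlap. The ratios of Itgb5 and Itga7 to Itgb1, Itgal to Itgb2 and Itgav to Itgb5 did not overlap either. Those of Itga4, Itga6 and Itgav to Itgb1, Itga4 to Itgb7, and Itgam and Itgb1 to Itgb2 overlapped. With 2 libraries against 2 an exact permutation test cannot go below p = 0.333, and none was run. T cell markers summed to 6890.4 and 7931 CPM after PBS and to 4729 and 5867 CPM after IL-5, and choroid plexus and ependyma markers to 84636 and 59498 CPM and to 113828 and 116844 CPM. The groups overlapped in neither sum, and their part in the Itgb1 value was not tested.

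Among the other chains of T cells Itgb2 had a log2 fold change of -0.43 (SE 0.25), Itgal one of -0.29 (SE 0.25), Itga4 one of -0.17 (SE 0.30) and Itga6 one of -0.41 (SE 0.52). Itgav had -1.37 (SE 0.96), with 4.32 CPM in T cells IL-5 replicate 1 and 29.2 CPM in replicate 2, and was -0.58 without the first and -3.32 without the second. Itgb5 had 1.26 (SE 0.76) and lay above both PBS libraries in T cells IL-5 replicate 1 alone, and was 0.40 without that library and 2.37 without T cells PBS replicate 1. For these 6 chains edgeR gave adjusted p = 1.00 each.

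In microglia 5 of 10 chains lay lower after IL-5 without overlap in CPM (Itgal, Itgam, Itga7, Itgb2 and Itgb5) and 0 higher. The rule for Itga7 used this contrast, so its place among the 5 was fixed by the choice. Only Itgal, Itgam, Itgb2 and Itgb5 are set beside all genes, of which 22.8% lay lower and 14.8% higher. These chains too were chosen with earlier results of these data known, so the shares are a description. Itgb2 went from 216 and 188 CPM after PBS to 22.1 and 108 CPM in the IL-5 libraries (log2 fold change -1.60, SE 0.64), and the lower of these was microglia IL-5 replicate 1, the library that stands apart. Without that library the value was -0.93, and without microglia IL-5 replicate 2 it was -2.86. Itgb1, at 47.2 CPM in the same library and 145 CPM in the other (-0.56, SE 0.50), and Itgb7, at 2.46 and 37.5 CPM (-0.19, SE 1.08), had their lowest value there as well. Itgam had -0.72 (SE 0.40), Itgb5 -0.65 (SE 0.38), Itgal -1.74 (SE 1.45), Itga6 -0.33 (SE 0.40), Itgav -0.021 (SE 0.50) and Itga4 0.44 (SE 0.97). Itgal had -4.34 without microglia IL-5 replicate 1 and -0.86 without replicate 2, and Itgb1 had -0.063 and -1.32. Itga6 had -0.064 without microglia PBS replicate 1, -0.56 without PBS replicate 2 and -0.19 without IL-5 replicate 1, and Itgam had -0.41 without PBS replicate 2.

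**Figure D5:**
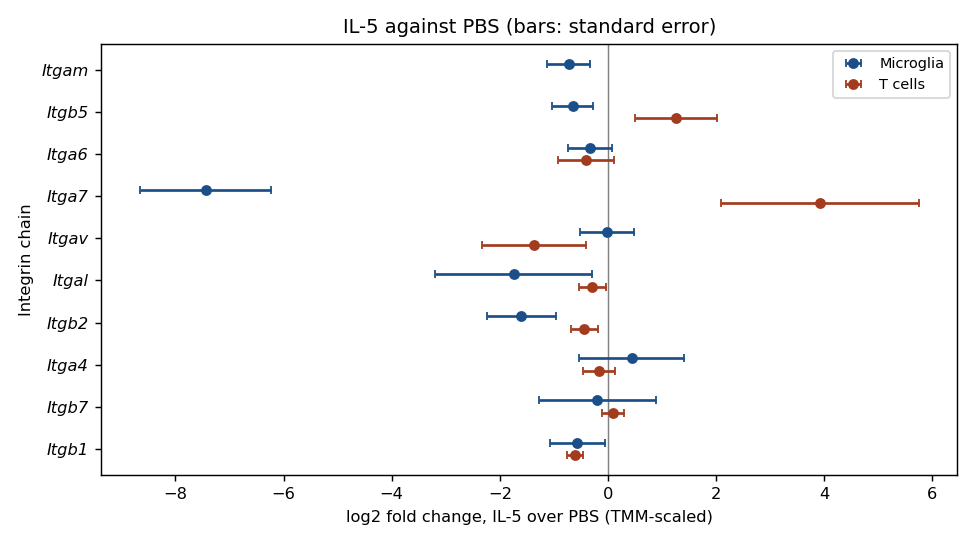
Log2 fold change of IL-5 over PBS for the 10 chains in microglia (blue) and for 9 in T cells (red), with standard errors as bars. Itga7 lies at -7.44 in microglia and 3.92 in T cells, and the other chains lie between -1.74 and 1.26.

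The other 16 integrin chains were all in the table, each with a mean of at least 1 CPM in some group. Of these Itga1 alone passed in PBS mice: the collagen-binding alpha 1 chain, a marker of tissue-resident T cells, measured 156 and 215 CPM in PBS T cells and 9.07 and 14.5 CPM in PBS microglia (log2 fold change 3.28 with SE 0.55, adjusted p = 0.00846 by edgeR). Itgae, the alpha E chain that pairs only with beta 7, was low beside its partner, at 5.34 and 22.3 CPM in PBS T cells and 15.8 and 15.2 CPM after IL-5. Itgax, the alpha X chain (CD11c) and a further partner of beta 2, measured 15.7 and 7.88 CPM in PBS microglia and 1.95 and 7.27 CPM after IL-5. Itgb3, which pairs with alpha V and with platelet alpha IIb, measured 27.8 and 23.5 CPM in PBS microglia and 1.55 and 4.43 CPM in PBS T cells. Itga9 measured 22.2 and 28.2 CPM in PBS microglia and 0 and 8.82 CPM in PBS T cells. Itga3, Itga5, Itga8 and Itgb8 reached at most 52.5 CPM in any library, and Itga2, Itga2b, Itga10, Itga11, Itgad, Itgb4 and Itgb6 at most 17.8.

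Genes that act with the integrins were counted in 3 lists, beside the 2.57% of all genes called higher and 4.60% called lower in PBS T cells. Of 19 tested genes that regulate integrin activation, in either direction, 3 were higher in PBS T cells and 1 lower. The Rap1 effector Rassf5, the adaptor Fyb that links the T cell receptor to LFA-1 and the actin crosslinker Flna had log2 fold changes of 1.69, 1.56 and 2.14 (edgeR adjusted p = 0.029, 0.0405 and 0.0479). The adaptor Skap2, used by myeloid cells, measured 75.0 and 109 CPM in PBS microglia and 10.4 and 17.5 CPM in PBS T cells (-3.41 with SE 0.65, adjusted p = 0.0156 by edgeR). Of 28 genes that signal from integrins, 3 were higher and 4 lower. The focal adhesion kinases Ptk2 and Ptk2b and the actinin Actn4 were higher (4.03, 1.73 and 2.40, edgeR adjusted p = 0.0458, 0.032 and 0.0155), and the ITAM adaptors Tyrobp and Fcer1g, through which beta 2 integrins signal in myeloid cells, were lower (-9.13 and -8.19, edgeR adjusted p = 0.00118 and 0.00102), as was the GTPase Rac1 (-1.66, edgeR adjusted p = 0.0325). Of 24 tested ligands 1 was higher and 1 lower, a share near that of all genes. Cdh1, E-cadherin and the ligand of alpha E beta 7, measured 127 and 93.3 CPM in PBS T cells and 0 counts in PBS microglia (edgeR adjusted p = 0.00107), and F11r, a junctional ligand of LFA-1, was lower by a log2 fold change of -4.34 (SE 0.57, edgeR adjusted p = 0.00262). The medians of the 3 lists were 0.22, -0.64 and 0.60, beside 0.056 for all genes. In IL-5 mice 3 activation genes were higher and 0 lower, 2 signalling genes higher and 3 lower and 2 ligands higher and 1 lower, where 2.49% of all genes were called higher and 5.73% lower, and the medians were 0.65, -0.27 and 0.35 beside 0.19 for all genes. In T cells none of the 3 lists held a gene called by edgeR after IL-5, and 1, 2 and 1 of their members had an unadjusted p under 0.05.

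The genes other than integrins whose profile over the 8 libraries was most like that of a chain were found by the root mean square distance between centred log2(CPM + 1) values. For Itgam they were Fcgr1, a high affinity Fc receptor, and Ppfia4 (distance 0.28 and 0.35). For Itgb7 they were Acap1 and Cd69, an activation and residency marker of lymphocytes (0.38 and 0.39), for Itgal Gramd3 and Tcf7, a transcription factor of T cells (0.28 and 0.35), and for Itga4 Ccnd2 and Syne2 (0.33 and 0.37). For Itga6 they were Wsb1 and Capza2 (0.16 and 0.20), for Itgav Prpsap2 and Tnfsf13b (0.19 and 0.35), for Itgb1 Nono and Acot7 (0.20 and 0.20), for Itgb2 Armc10 and Mapkapk5 (0.22 and 0.23) and for Itgb5 Plau and Renbp (0.50 and 0.51). For Itga7 the nearest were farther off, Jrk and Ube2cbp (0.62 and 0.76), and both had 0 counts in the IL-5 microglia and PBS T cell libraries. Among the 10 chains themselves the nearest pairs were Itgb1 and Itgb2 (0.65), Itga6 and Itgav (0.85) and Itgb1 and Itgb7 (1.04), while Itga4 and Itgb7 stood at 1.05.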

How the data were processed

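For the 8 libraries the authors deposited unscaled gene counts, whole numbers, in 1 table. Per the submitters' processing notes, the tools were STAR 2.5.3a, DESeq2 1.1, Cufflinks 2.0, FastQC 1.0.0 and bcl2fastq 2.20.0.422, and the builds mm10 and GRCm38. The counting tool and strand setting are not given in the sources used here. Of 24953 entries, 2 summary entries (reads outside genes, 15.2% to 25.5%, and ambiguous reads, 1.39% to 1.77%) and 27 genes with cells that were not numbers were left out.

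All tests are quasi-likelihood tests of edgeR 4.0.16 in R 4.3.3 (TMM, filterByExpr with a minimum count of 10, robust, two-sided). Their p-values were adjusted by Benjamini-Hochberg over all genes tested, with a threshold of 0.05. Simulated data were tried on some of these comparisons, not all, and the outcome is not given here. T cells against microglia used all 8 libraries, IL-5 against PBS the 4 of a cell type. A standard error is the log2 fold change over the square root of its F. Alternatives were DESeq2 1.42.0, other scalings, filters and sample sets, the replicate number as a block, and leaving out each library. Gene lengths and coordinates are from GENCODE M21 and promoters from RefSeq, both GRCm38. A count of 0 allows up to 3 counts, 0.0986 to 0.127 CPM, for counting error only, since reads are not independent molecules. The members and the gene lists were chosen with earlier results of these data known. All members, the other chains of at least 1 CPM in a group, up to 3 called genes per pathway list and direction with the highest mean CPM, and 2 genes of nearest profile per member are named. Figures were drawn with matplotlib 3.10.9.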

Additional observations from a re-analysis of the deposited data

Results flagged for a closer look

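Itga7 moved in opposite directions after IL-5 in the cell types: both IL-5 T cell libraries lay above both PBS T cell libraries, by 14.57-fold in the means, and both IL-5 microglia libraries lay below both PBS microglia libraries. On the log2 scale the T cell value moved between 2.82, without T cells IL-5 replicate 1, and 4.67, without T cells PBS replicate 2. The difference between these responses was not tested, because the microglia values were used to choose the gene.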

How the results depend on the processing

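Of 509 member fold changes recomputed under an alternative, 422 kept their direction and their side of the threshold, 53 lost the call, 22 gained one and 12 changed sign; of 186 counts, 53 moved by more than 1.5 times. In DESeq2 T cells against microglia in PBS mice gave 1226 genes higher and 1623 lower, with library-size scaling 919 and 376, with no filter 641 and 1081, and with the 4 libraries compared 594 and 1072. In IL-5 mice DESeq2 gave 1154 higher and 1717 lower, library-size scaling 958 and 336, no filter 607 higher, and the 4 libraries compared 45 and 172. Members called lower in PBS mice were 2 with library-size scaling, no filter or the replicate block, and in IL-5 mice 1 with library-size scaling and 1 with the 4 libraries, where 1 member was higher. In IL-5 treated T cells DESeq2 called 403 genes higher and 255 lower, 1 member each way, and edgeR called 2 higher with no filter and with all 8 libraries; in microglia DESeq2 called 18 higher and 49 lower. Leaving out 1 library gave 134 to 831 genes higher and 349 to 1197 lower in PBS mice (members 1 to 4 and 1 to 4), 101 to 1028 and 284 to 1181 in IL-5 mice (members 2 to 5 and 2 to 3), 0 to 1 higher and 0 to 0 lower in T cells, and 0 to 532 and 0 to 723 in microglia, where the highest counts came without IL-5 replicate 2. The cause was not tested.

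Same-numbered libraries did not deviate together (correlation -0.0045 to 0.0156 over 15397 genes). With 2 libraries per group this cannot exclude that the numbers pair them, which the labels do not say. With the replicate block 316 genes were higher and 617 lower in PBS mice and 293 and 682 in IL-5 mice; Itga6 in PBS mice (adjusted p = 0.0613 by edgeR) and Itgb7 in IL-5 mice (0.0701) were then not called.

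In T cells Itga6 changed sign without PBS replicate 1 (0.027), Itgb7 without PBS replicate 2 (-0.0072) or IL-5 replicate 1 (-0.095), and Itga4 without PBS replicate 2 (0.19) or IL-5 replicate 2 (0.0049). In microglia Itgav did so in DESeq2 (0.0040), with its size factors (0.0040), with the 5 CPM filter (0.0080) and without PBS replicate 1 (0.38) or IL-5 replicate 2 (0.27), Itga4 without PBS replicate 2 (-0.12) and Itgb7 without IL-5 replicate 1 (0.69). Leaving out 1 library, these ranged from -0.75 to 0.027 (Itga6), -0.095 to 0.25 (Itgb7) and -0.46 to 0.19 (Itga4) in T cells, and from -0.39 to 0.38 (Itgav), -0.12 to 1.34 (Itga4) and -2.87 to 0.69 (Itgb7) in microglia. With lengths from the longest transcript, an alternative chosen after seeing the data, Itgb5 changed places with Itga6 in PBS T cells and with Itga4 in IL-5 T cells.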
